A study of Mus musculus with 9 samples.

Results

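The B cell receptor passes its signal to a small set of cytoplasmic kinases, adaptors and effectors, and the mRNAs of 10 of them were followed here in RNA precipitated with phosphorylated UPF1 (p-UPF1). They were the kinases Lyn, Syk and Btk, the adaptors Blnk, Grap, Pik3ap1 and Dok3, and the effectors Plcg2, Vav1 and Swap70. The 10 were chosen by name, with earlier results of these data known. Each was found as 1 of the 27179 genes of the count table through its NCBI Gene number. All 10 also passed the filter on low counts, which left 13129 genes to test. Of the 10 mRNAs, 4 (Grap, Syk, Pik3ap1 and Swap70) were recovered with p-UPF1 at 4.04 to 7.15 times their level in either background. The mRNAs of Btk, Blnk and Plcg2 were recovered at 0.44 to 0.599 times that level, and those of Lyn, Dok3 and Vav1 lay within a factor of 1.3 of both backgrounds.

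In RNA immunoprecipitation sequencing (RIP-seq), RNA that comes down with a protein is sequenced. All 9 libraries came from splenic B cells of wild-type mice, freed of CD43-positive cells and then activated for 72 h. The stimuli were CD40L (5 ug/mL) per the labels, where the methods of the study instead give an anti-CD40 antibody, together with anti-IgM antibody (10 ug/mL) and IL-4 (20 ng/mL). The pUPF1 group (3 libraries) was precipitated with an antibody against p-UPF1, the IgG group (3 libraries) with normal rabbit IgG, and the Input group (3 libraries) was a portion of the lysate with no precipitation. All groups thus share the genotype and the stimuli, anti-IgM among them, which engages the receptor whose signalling genes are described here, and no unstimulated cells were included. The labels give no age, and the study's methods describe its mice in general as age-matched adults of both sexes. Libraries held 19873687 to 24945286 counts in the Input group, 17372510 to 18550508 in the IgG group and 23251890 to 24802119 in the pUPF1 group. The 6 B cell markers given here (Ms4a1, Cd79a, Cd79b, Pax5, Ebf1 and Cd22) were all detected and summed to 2485 to 2501 CPM (counts scaled to equal library size) in Input. Markers of T cells summed to 4.79 to 5.43 CPM, of macrophages and monocytes to 128 to 139 CPM and of plasma cells to 275 to 281 CPM, of dendritic cells to 4.74 to 4.94 CPM and of NK cells to 0.764 to 0.933 CPM in Input, while those of neutrophils and erythroid cells reached at most 0.0509 CPM there. In p-UPF1 libraries the sums were 1556 to 1619 CPM for B cell, 2.63 to 3.07 CPM for T cell, 57.2 to 59.4 CPM for macrophage and monocyte and 135 to 137 CPM for plasma cell markers, and the part of other cells in any result below was not tested. Single genes carried some of these sums. In Input, Adgre1 had 131 CPM, whereas Lyz2, Csf1r, Itgam and Cd14 had at most 0.22 CPM each, and Xbp1 had 254 CPM, whereas Sdc1 had 3.87 and Jchain 3.32 CPM. Since these are bulk lysates, fewer cells with an mRNA and less of it per cell cannot be told apart.

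UPF1 is an RNA helicase of nonsense-mediated mRNA decay (NMD), a pathway that degrades mRNAs on which translation ends in an unfavourable context, such as upstream of an exon junction or far from the poly(A) tail. It is phosphorylated on such mRNAs, and the phosphorylated form recruits factors that degrade them. When antigen engages the B cell receptor, Lyn phosphorylates the tails of its signalling chains, Syk docks there and phosphorylates the adaptor Blnk, and Blnk gathers Btk, Plcg2 and Vav1, which carry the signal to calcium, protein kinase C and the cytoskeleton.

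Because UPF1 acts where translation ends, the stop codons of the 4 mRNAs most enriched with p-UPF1 and of the 3 most depleted are shown first. Each line gives the last 18 coding bases, the stop codon in capitals and the first 6 bases of the 3′ UTR, from RefSeq transcripts on GRCm38 (the assembly that mm10 names). Each window lies within 1 exon. All RefSeq protein-coding (NM) transcripts of a gene share its window.
Grap (chr11:61671838-61671864, + strand): gtgcaaccggtacacttgTGAccacac
Syk (chr13:52645775-52645801, + strand): tactacgacgtggttaacTAAcagctc
Pik3ap1 (chr19:41274290-41274316, - strand): gttccacccagaggtcgcTGAtcccgc
Swap70 (chr7:110281317-110281343, + strand): gagaagaagaccacagagTGAcggccg
Btk (chrX:134542730-134542756, - strand): gtgatggatgaagaatccTGAgctggc
Blnk (chr19:40929167-40929193, - strand): tatgctgtgaaggtttcaTAAcgatac
Plcg2 (chr8:117634807-117634833, + strand): aacagcaggttctactccTAGaagccg
Both kinds of mRNA used TGA and TAA. Over all 10 genes, TGA was the stop codon of 6, TAA of 2 (Syk and Blnk) and TAG of 2 (Lyn and Plcg2). Among the 11891 tested genes with an NM transcript the shares were 51.7%, 25% and 23.3%.

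Levels are given as CPM after scaling by trimmed mean of M-values (TMM), with values in the order of libraries A, B and C. Gene positions are those of RefSeq on GRCm38. Log2 fold changes, their standard errors (SE) and adjusted P values come from the quasi-likelihood test of edgeR across all 13129 genes, adjusted by Benjamini-Hochberg, and a gene was called at an adjusted P under 0.05. TMM sets the typical RNA of each library equal, so a log2 fold change of 0 stands for the typical RNA and not for no association with p-UPF1. The median log2 fold change of all genes was -0.03 over IgG and -0.03 over Input, with interquartile ranges from -0.89 to 0.90 and from -0.99 to 0.90. Both comparisons use the same p-UPF1 libraries and are therefore not independent. P values measure the spread between these libraries, since the labels do not state whether replicates came from separate cultures or animals.

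Lyn is the Src family kinase that starts signalling at the receptor and also feeds inhibitory receptors (chromosome 4, 3678068 to 3791612). It measured 77.7, 72.9 and 79.1 CPM in Input, 63.4, 71.9 and 74.3 CPM in IgG and 90.4, 92.5 and 88.7 CPM with p-UPF1. Every p-UPF1 library lay above every Input and IgG library, although by a small margin. The log2 fold change was 0.37 (SE 0.06) over IgG and 0.24 (SE 0.06) over Input, with adjusted P of 1.47e-05 and 0.000861 (edgeR, Benjamini-Hochberg). The mRNA of Lyn overlaps the exons of a noncoding gene on the opposite strand, Gm42250, by 41 bases, and whether the counting used strand is not stated.

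Syk is the kinase that binds the phosphorylated receptor chains and passes the signal on (chromosome 13, 52582610 to 52648792). It measured 54.6, 56.5 and 58.9 CPM in Input, 54.4, 68.2 and 56.5 CPM in IgG and 357, 374 and 379 CPM with p-UPF1. The p-UPF1 libraries stood far above the other 6, and Input and IgG overlapped. Its log2 fold change came to 2.63 (SE 0.07) over IgG and 2.71 (SE 0.07) over Input, or 6.2-fold and 6.53-fold, with adjusted P of 1.29e-15 and 7.28e-16 (edgeR, Benjamini-Hochberg). Of the 3 kinases, Syk alone met the fold minimums for p-UPF1 binding given below.

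Btk is the Tec family kinase that activates phospholipase C (chromosome X, 134542334 to 134583628). Its level was 112, 112 and 110.2 CPM in Input, 101, 107 and 104 CPM in IgG and 57.3, 56.6 and 58.3 CPM with p-UPF1. The p-UPF1 libraries were the lowest without overlap. The change in Btk on the log2 scale was -0.85 (SE 0.04) over IgG and -0.96 (SE 0.04) over Input, with adjusted P of 1.1e-11 and 1.84e-12 (edgeR, Benjamini-Hochberg). The mRNAs of Syk and Btk, whose products act together on the same signalling complex, thus lay on opposite sides of the typical RNA.

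Blnk is the central adaptor, a substrate of Syk (chromosome 19, 40928927 to 40994221). It measured 285, 293 and 280 CPM in Input, 216, 210 and 205 CPM in IgG and 128, 127 and 123 CPM with p-UPF1. The 3 groups did not overlap and stepped down from Input to IgG to p-UPF1. Its change was -0.74 (SE 0.04) on the log2 scale over IgG and -1.18 (SE 0.04) over Input, with adjusted P of 2.47e-11 and 3.79e-14 (edgeR, Benjamini-Hochberg). IgG was itself below Input by a log2 fold change of -0.44 (SE 0.04), so the IgG precipitate also held less Blnk than the lysate, relative to the typical RNA.

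Grap, an adaptor of the Grb2 family that links receptors to Ras signalling, had the highest enrichment of the 10 over IgG and the same log2 fold change as Syk over Input (chromosome 11, 61653321 to 61672777). It measured 744, 737 and 737 CPM in Input, 675, 668 and 687 CPM in IgG and 4802, 4894 and 4822 CPM with p-UPF1. No p-UPF1 library came near the other 6, and the IgG libraries lay slightly below Input. Its log2 fold change came to 2.84 (SE 0.03) over IgG and 2.71 (SE 0.03) over Input, or 7.15-fold and 6.55-fold, with adjusted P of 1.26e-18 and 4.39e-19 (edgeR, Benjamini-Hochberg). Its log2 fold change over IgG lay at percentile 98.4 of the tested genes. Grap took 0.0727% ± 0.000855 of the counts in Input and 0.0721% ± 0.00136 in IgG, against 0.461% ± 0.00429 with p-UPF1 (SD, n = 3).

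Pik3ap1, also called BCAP, is the adaptor that binds phosphoinositide 3-kinase (PI3K) once phosphorylated (chromosome 19, 41272541 to 41385102). It measured 168, 174 and 165 CPM in Input, 142, 158 and 156 CPM in IgG and 685, 703 and 660.1 CPM with p-UPF1. The p-UPF1 libraries were highest without overlap. The log2 fold change was 2.16 (SE 0.05) over IgG and 2.02 (SE 0.05) over Input, or 4.48-fold and 4.04-fold, with adjusted P of 2.04e-16 and 3.28e-16 (edgeR, Benjamini-Hochberg). Exons of the noncoding gene Gm52406 on the opposite strand overlap those of Pik3ap1 by 71 bases.

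Dok3, an adaptor that restrains signalling through the receptor, had the fewest counts of the 10 (chromosome 13, 55523231 to 55530345). It measured 20.3, 17.8 and 18 CPM in Input, 23.2, 18.1 and 14.4 CPM in IgG and 25.7, 22.6 and 20.9 CPM with p-UPF1. The p-UPF1 libraries lay above Input by a narrow gap and overlapped IgG, whose libraries were widely spread. Its log2 fold change came to 0.32 (SE 0.13) over IgG and 0.30 (SE 0.13) over Input, with adjusted P of 0.0353 and 0.0419 (edgeR, Benjamini-Hochberg). Over IgG the call was lost without IgG B, IgG C, p-UPF1 A or p-UPF1 B, at log2 fold changes of 0.31, 0.16, 0.25 and 0.33 (adjusted P of 0.0719, 0.193, 0.135 and 0.0587 by edgeR), and without IgG A the value was 0.51. Over Input it was lost without Input B, Input C, p-UPF1 A or p-UPF1 B, at 0.27, 0.26, 0.23 and 0.31 (adjusted P of 0.117, 0.126, 0.158 and 0.0719 by edgeR). Library size alone and upper-quartile factors also ended both calls (0.15 and 0.18 over IgG, 0.25 and 0.23 over Input), and an Input library as TMM reference (0.23) and a fit of only the groups compared (0.30) ended that over IgG.

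Plcg2, the phospholipase that makes the second messengers for calcium release and protein kinase C, was the most depleted of the 10 against IgG (chromosome 8, 117498275 to 117635142). It measured 309.9, 321 and 321 CPM in Input, 289, 293 and 316 CPM in IgG and 149, 149.9 and 166 CPM with p-UPF1. The p-UPF1 libraries were clearly below the others, while Input and IgG overlapped. Its change was -0.95 (SE 0.05) on the log2 scale over IgG and -1.03 (SE 0.05) over Input, with adjusted P of 1.47e-11 and 4.01e-12 (edgeR, Benjamini-Hochberg).

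Vav1, a guanine nucleotide exchange factor for small GTPases, stayed nearest to the typical RNA (chromosome 17, 57279100 to 57329236). It measured 188, 185 and 183 CPM in Input, 193, 186 and 179.8 CPM in IgG and 168, 170.2 and 172 CPM with p-UPF1. The p-UPF1 libraries were lowest, with a small gap to the others. Its log2 fold change came to -0.13 (SE 0.04) over IgG and -0.12 (SE 0.04) over Input, with adjusted P of 0.0061 and 0.00827 (edgeR, Benjamini-Hochberg). Both calls were lost without p-UPF1 A, at adjusted P of 0.0517 and 0.0623 in the same test. Without the low-count filter the value was -0.09 over IgG (adjusted P of 0.134 by edgeR) and 0.01 over Input. The call over Input was also lost with RLE size factors (-0.08, adjusted P of 0.081 by edgeR), with DESeq2 (-0.08, adjusted P of 0.0789) and with an IgG library as TMM reference (0, adjusted P of 0.939 by edgeR).

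Swap70, a phosphoinositide-binding protein that acts on Rac and the actin cytoskeleton in activated B cells, was the only one of the 3 effectors to rise (chromosome 7, 110221703 to 110283506). Its level was 579, 598 and 582 CPM in Input, 702, 706 and 738 CPM in IgG and 3034, 3106 and 3139 CPM with p-UPF1. The 3 groups did not overlap, and IgG lay above Input. Its change was 2.11 (SE 0.04) on the log2 scale over IgG and 2.40 (SE 0.04) over Input, or 4.32-fold and 5.28-fold, with adjusted P of 1.6e-17 and 3.52e-18 (edgeR, Benjamini-Hochberg). Among the 10 it was the only mRNA called higher in IgG than in Input, by a log2 fold change of 0.29 (SE 0.04, adjusted P of 4.57e-06 by the same test).

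**Figure D1:**
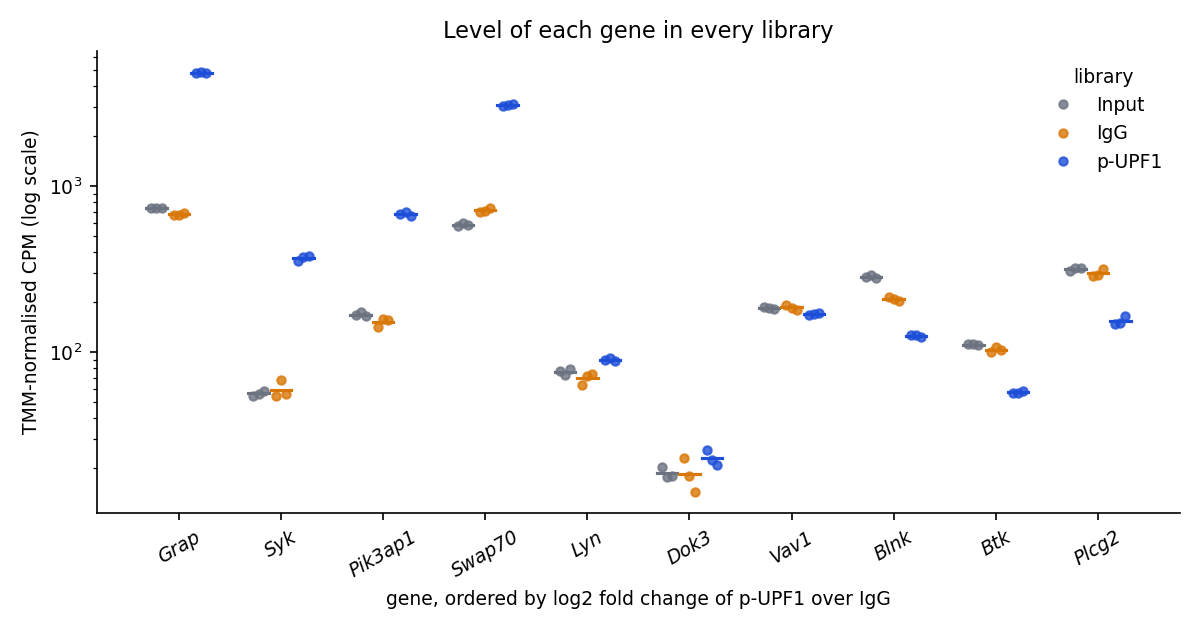
TMM-normalised CPM (log axis) of the 10 mRNAs in the 3 Input, 3 IgG and 3 p-UPF1 libraries, where each point is 1 library, each bar the group mean, and genes run from the highest to the lowest log2 fold change over IgG. The p-UPF1 points of Grap, Syk, Pik3ap1 and Swap70 stand well above both backgrounds, those of Blnk, Btk and Plcg2 stand below, and those of Dok3 overlap IgG.

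Counted together, 6 of the 10 were called higher and 4 lower in p-UPF1 than in IgG, where 40.4% of all tested genes were called higher and 42.2% lower. Over Input, 6 were again called higher and 4 lower, against 40.8% and 42.6% of all genes. With most genes of the table called in either direction, these counts are near the background, and counts by the size of the change are given next. The log2 fold change over IgG reached 1 or more, with a call, for 4 of the 10, against 22.2% of all genes. RNAs were called p-UPF1-bound by the criterion in the study's methods, which asks for a change on the log2 scale of 1 or more against IgG and of 2 or more against Input, both with adjusted P under 0.05. The same 4 of the 10 (Grap, Syk, Pik3ap1 and Swap70) met it, against 6.25% of all genes tested (820). Since the 10 were chosen with earlier results of these data known, these shares cannot show whether such genes are bound more often than others. The median log2 fold change of the 10 was 0.34 over IgG and 0.27 over Input. No mRNA of the 10 lay between 0.37 and 2.11 over IgG.

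Pik3ap1 lay closest to the minimum of 2 over Input. The value there was 1.99 without Input C and 1.99 without p-UPF1 B, so leaving out either library ended its call as bound. It was 1.97 with library size alone in place of TMM and 1.95 with upper-quartile factors, and the test of the fold minimum itself (glmTreat) did not call it. Grap, Syk and Swap70 met the criterion under all of these settings. Directions depended on the scale when libraries were set equal in mitochondrially encoded mRNA. The median log2 fold change of all genes then became 4.66 over IgG and 5 over Input, and all 10 mRNAs were called higher, so lower values above mean lower than the typical RNA only.

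**Figure D2:**
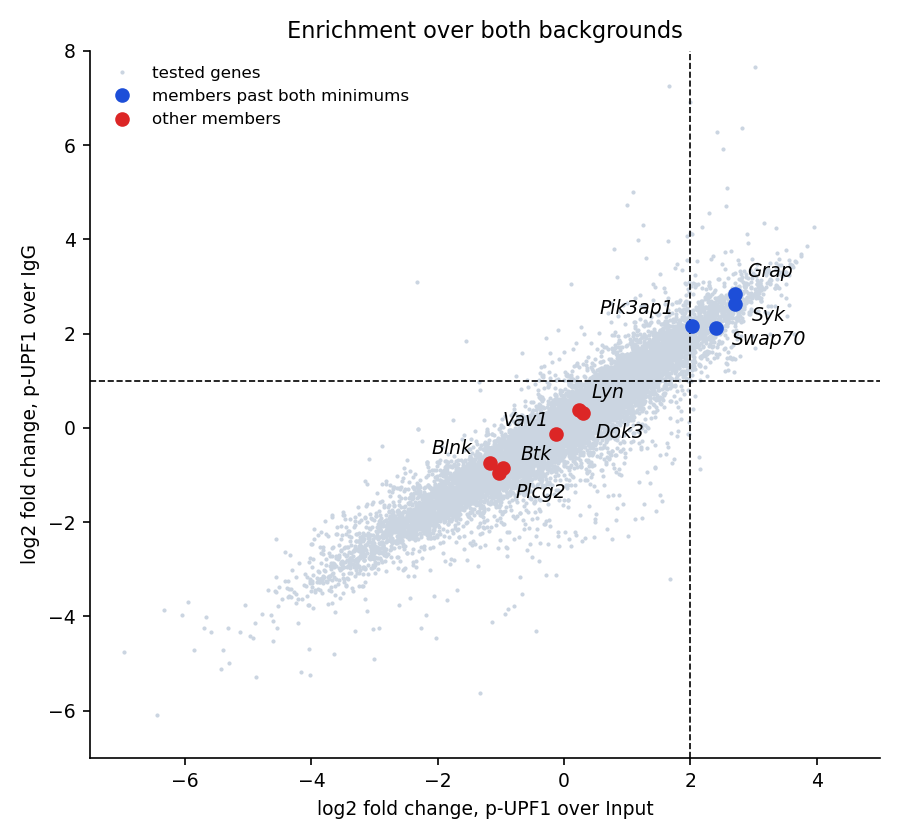
Log2 fold change of p-UPF1 over Input (x) and over IgG (y) for the 13129 tested genes (grey), with the 4 members that met both minimums (dashed lines at 2 and 1) in blue and the other 6 in red. Both axes share the p-UPF1 libraries. Grap, Syk and Swap70 sit beyond both lines, Pik3ap1 sits just past the minimum over Input, and the other 6 lie well short of it.

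IgG and Input differed less. Swap70 was called higher in IgG (18.2% of all genes were), and Btk, Blnk, Grap and Pik3ap1 were called lower (34.7% of all genes were). The largest of these differences in size was that of Blnk, and the others ranged from -0.15 to 0.29. Their log2 fold changes were 0.08 for Syk, -0.13 for Lyn, -0.10 for Btk, -0.13 for Grap, -0.15 for Pik3ap1, -0.02 for Dok3, -0.08 for Plcg2 and 0.01 for Vav1. The median of all genes was -0.10. Of the lower calls, that of Btk was lost without any single Input library, without IgG A and without p-UPF1 A (adjusted P of 0.0564 to 0.103 by edgeR), and that of Pik3ap1 without Input B (adjusted P of 0.0594). Calls were gained too, by the same edgeR test. Lyn was called lower in IgG without Input B (-0.17, adjusted P of 0.047) and without IgG C (-0.19, adjusted P of 0.0177), and Plcg2 without IgG C (-0.13, adjusted P of 0.0327). Several calls also depended on the scaling, the filter or the samples fitted. With library size alone, upper-quartile factors, an Input or IgG library as TMM reference, no low-count filter or only the groups compared, Btk, Grap and Pik3ap1 all lost theirs, and Grap then stood at -0.06 to -0.01 (adjusted P of 0.139 to 0.765 by edgeR). With library size alone or an Input or IgG reference, Syk (0.18 to 0.19, adjusted P of 0.0238 to 0.04) and Vav1 (0.11 to 0.12, adjusted P of 0.0191 to 0.0391) were called higher in IgG as well, by the same edgeR test. Syk was also called without the filter and Vav1 with only the groups compared. The calls of Swap70 and Blnk held under each of these settings.

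Together the 10 took 0.25% ± 0.000377 of the counts in Input and 0.266% ± 0.00261 in IgG, against 0.915% ± 0.00703 with p-UPF1 (SD, n = 3). The 4 bound mRNAs took 0.153% ± 0.000194, 0.171% ± 0.00205 and 0.856% ± 0.00723, and the other 6 took 0.0979% ± 0.000253, 0.0946% ± 0.00117 and 0.0592% ± 0.000411. These shares restate the values that chose the 4 and carry no test.

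To compare levels between genes, CPM were divided by the length of the NM transcript with the longest coding sequence, in kilobases. All annotated exons of a gene together can be longer, at 10142 nt against 5103 nt in Syk, 3193 against 1546 in Dok3 and 5704 against 4035 in Swap70. In Grap, Blnk and Plcg2 the lengths are equal. The order below therefore applies to this choice of length only. In Input, Grap had the highest level at 462 ± 2.53 CPM per kb (SD, n = 3), followed by Blnk (160.4 ± 3.68), Swap70 (145 ± 2.53) and Plcg2 (73.6 ± 1.49). Next came Vav1 (44.5 ± 0.604) and Btk (43.9 ± 0.41), whose libraries overlapped, and then Pik3ap1 (41.1 ± 1.11) and Lyn (22.2 ± 0.941). Dok3 (12.1 ± 0.899) and Syk (11.1 ± 0.422) were lowest and overlapped. The order of levels in IgG was the same except that Swap70 (177 ± 4.89 CPM per kb) came before Blnk (118 ± 3.09), and Dok3 and Syk again overlapped.
In p-UPF1 libraries Grap (3026 ± 30.3 CPM per kb) and Swap70 (767 ± 13.3) led, and Pik3ap1 (166 ± 5.24) was the third. Syk, which shared the lowest levels in Input with Dok3, came next at 72.5 ± 2.26 CPM per kb and overlapped Blnk (70.7 ± 1.48). Dok3 (14.9 ± 1.57) was lowest.

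Most of these proteins have close relatives, whose values are given beside theirs. Differences between genes were not tested. All are log2 fold changes of p-UPF1 over IgG with their SE, unless Input is named.
In the Syk family, Zap70, the T cell counterpart of Syk, stood at 2.25 (SE 0.42) beside 2.63 for Syk. Its mean rose from only 0.412 ± 0.307 CPM in IgG to 1.98 ± 0.454 CPM with p-UPF1. Over Input it stood at 1.37 (SE 0.37), beside 2.71 for Syk, and it did not meet the criterion for p-UPF1 binding.
Among Src family kinases, Lyn (0.37) resembled Blk (0.24, SE 0.04), another B cell kinase of the family. Fyn stood at -0.32 (SE 0.04), Lck at -0.58 (SE 0.05) and Yes1 at -0.03 (SE 0.07). For Yes1, IgG itself lay above Input (0.87, SE 0.07), and p-UPF1 over Input was 0.84 (SE 0.07). Src itself was enriched at 2.56 (SE 0.15), from 5.37 ± 1.62 to 31.7 ± 1.45 CPM, and met the criterion for p-UPF1 binding. Fgr (0.77, SE 0.22) had means of at most 2.6 CPM in every group.
In the Tec family, Btk (-0.85) was lower while Tec rose by 1 on the log2 scale (SE 0.04), from 114 ± 0.939 to 227 ± 5.5 CPM. Bmx, Txk and Clnk, a relative of Blnk, did not pass the filter on low counts.

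Among adaptors, Lcp2, the T cell counterpart of Blnk, was lower like Blnk, at -1.18 (SE 0.06) against -0.74. Grb2, the widely used relative of Grap, stood at 1.07 (SE 0.04) and Grap2 at 1.58 (SE 0.09), both positive but below Grap at 2.84. Bank1, a scaffold related to Pik3ap1, was not called (-0.18, SE 0.08, adjusted P of 0.051 by edgeR, Benjamini-Hochberg). Dok1 stood at 0.58 (SE 0.05) and Dok2 at 0.21 (SE 0.21), beside 0.32 for Dok3.
For the effectors values within families spanned both signs. Plcg1 was higher in p-UPF1 at 1.48 (SE 0.05), from 65.2 ± 1.9 to 182 ± 6.34 CPM, whereas Plcg2 was lower at -0.95. Vav2 met the criterion for binding at 2.24 (SE 0.05), from 127 ± 7.68 to 601 ± 10.9 CPM. Vav3 stood at 0.61 (SE 0.06), beside -0.13 for Vav1, and at 1.22 (SE 0.06) over Input. Def6, the close relative of Swap70, was lower at -0.56 (SE 0.06), from 80.8 ± 6.78 to 54.9 ± 3.35 CPM.

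**Figure D3:**
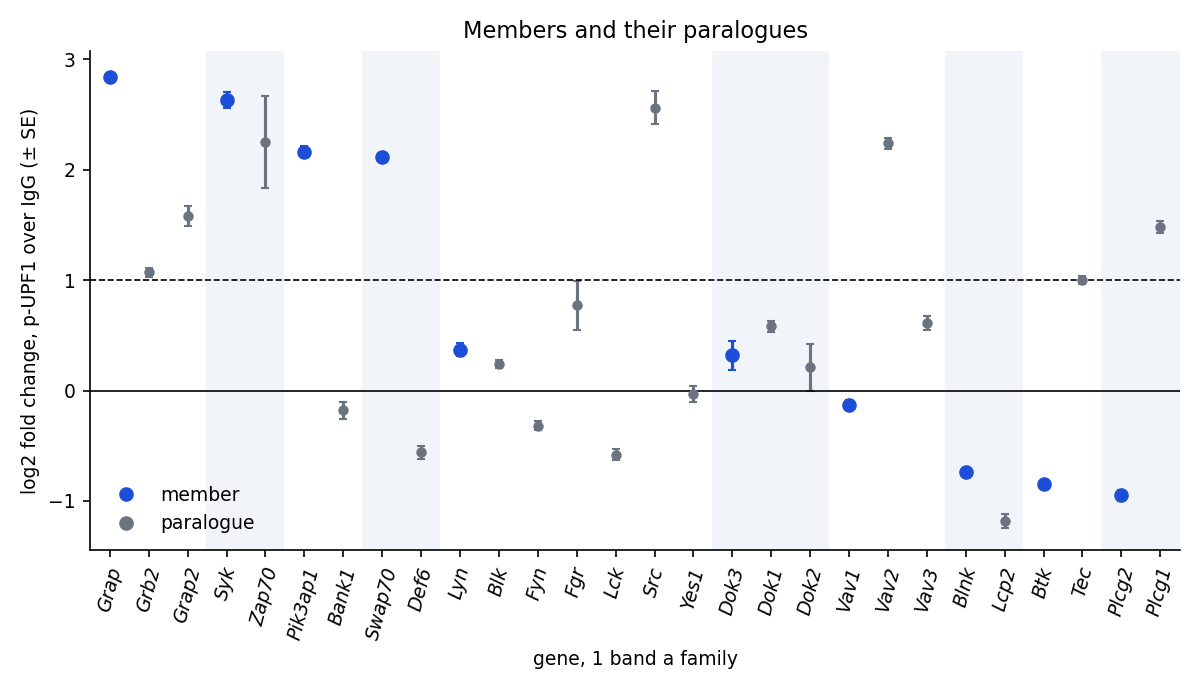
Log2 fold change of p-UPF1 over IgG (± SE, 3 libraries a group) for the 10 members (blue) and tested paralogues (grey), with 1 shaded or white band for each family. Solid line, 0. Dashed line, 1. Syk and Zap70 both lie above 2, although Zap70 had group means of at most 1.98 CPM. Plcg2 and Plcg1, Btk and Tec, and Swap70 and Def6 lie on opposite sides of 0.

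A wider list of 82 other genes of B cell receptor signalling, all of them tested, was set beside the 10. Of these, 39 were called higher, 34 lower and 9 not called over IgG, with a median log2 fold change of 0.07 against -0.03 for all genes. These counts are near the 40.4% and 42.2% of all genes called higher and lower. Over Input, 42 were called higher and 33 lower, with a median of 0.17 against -0.03 for all genes. Of all genes, 40.8% were called higher and 42.6% lower over Input. The criterion for p-UPF1 binding was met by 7 of the 82, also near the 6.25% of all genes.
Of these 7, 5 were adaptors. Dapp1 (Bam32), which binds PI3K products and Plcg2, stood at 3 over IgG and 3.07 over Input. Sh3bp2, an adaptor that binds Syk, stood at 2.78 and 2.91, and Crkl, an SH2 and SH3 adaptor, at 2.37 and 2.51. Sla, which promotes turnover of receptor complexes, stood at 2.04 and 2.07, and its relative Sla2 at 2.23 and 2.10, the latter from a mean of only 0.312 ± 0.182 CPM in IgG. Sla2 had 2 to 10 counts in each Input and IgG library and 30 to 38 with p-UPF1. It thus passed the low-count filter only through the p-UPF1 libraries, where it was high, and its place among the 7 bound and the 5 adaptors rests partly on that filter. The other two were the phosphatase Ptpn11 (SHP-2), at 2.75 and 3.09, and Vav2.
The 3 lowest over IgG at a mean of at least 10 CPM were Cd79a, a signalling chain of the receptor, at -2.10, the kinase Prkcd at -1.86 and the coreceptor subunit Cd81 at -1.48. Over Input they stood at -3.04, -1.12 and -1.96.

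By role, the 21 adaptors of this list had 13 called higher and 4 lower over IgG, with a median of 0.62, and held 5 of the 7 bound mRNAs. The 9 receptor and coreceptor genes had 2 called higher and 6 lower, with a median of -0.53 and none bound. Of 9 tyrosine kinases and their regulators, 3 were higher and 5 lower (median -0.32), with none bound. Of the 5 PI3K genes, 4 were higher and 1 lower (median 1.22), with none bound. At 5 to 21 genes a role, and with most genes of the table called and 6.25% bound, these counts are descriptions only.
The remaining roles were mixed. Phosphatases had 3 higher and 2 lower of 5 (median 0.49), exchange factors and GTPases 5 higher and 7 lower of 13 (median -0.20), the calcium and protein kinase C arm 7 higher and 6 lower of 15 (median -0.09) and the MAP kinase arm 2 higher and 3 lower of 5 (median -0.21). Within the 10, 2 of the 4 adaptors were bound (median 1.24), as were 1 of the 3 kinases (median 0.37) and 1 of the 3 effectors (median -0.13).

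**Figure D4:**
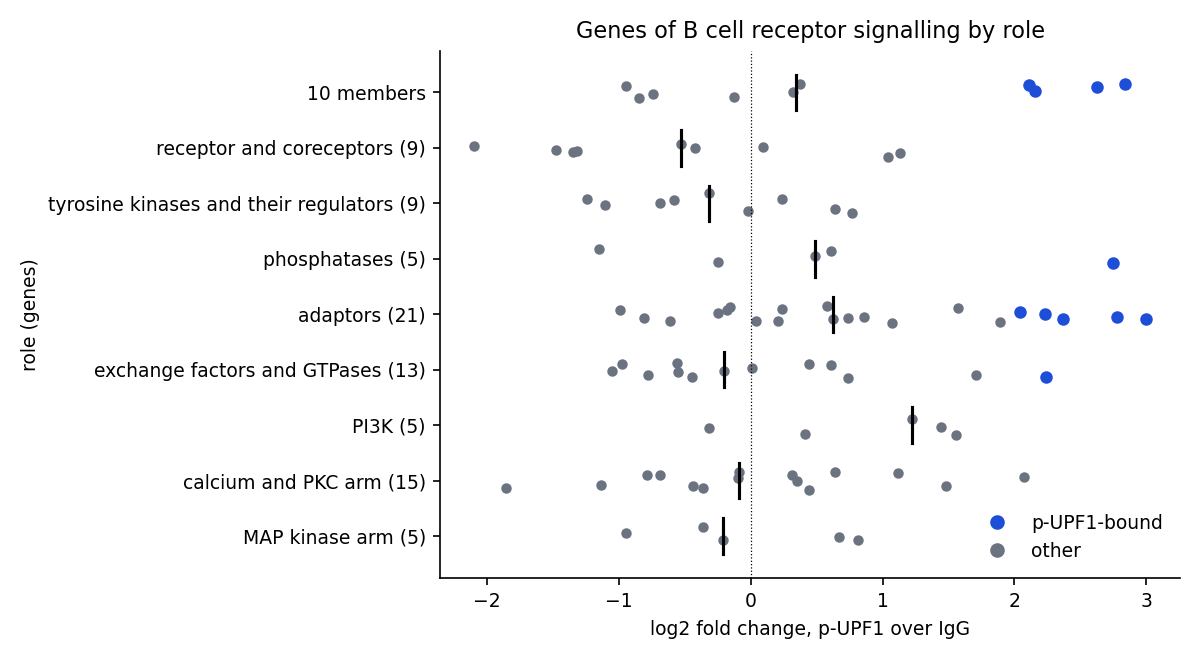
Log2 fold change of p-UPF1 over IgG for the 10 members and for the 82 other genes of B cell receptor signalling by role (number of genes in brackets). Each point is 1 gene, blue where it met the criterion for p-UPF1 binding, and bars mark medians. The vertical spread within a row has no meaning. Bound genes lie among the members, adaptors, phosphatases and exchange factors, and the receptor and coreceptor genes have the lowest median, -0.53.

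For the highest and the lowest of the 10 over IgG, the genes with the most similar pattern were sought among 8992 genes, by Euclidean distance between log2(CPM + 0.5) over the 9 libraries after centring each gene. Nearest to Grap were Nfkbie (distance 0.0663, log2 fold change over IgG 2.87), Trub2 (0.105 and 2.92) and Rapgef1 (0.133 and 2.74). Nearest to Plcg2 were Mars1 (0.0733 and -0.97), Pold1 (0.103 and -1.01) and Nedd1 (0.106 and -0.93).

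Transcript features that favour NMD were read from the annotation for the 10 genes. In none of their NM transcripts did an exon junction lie more than 50 nt downstream of the stop codon, and none had a transcript annotated in GENCODE as an NMD target. Among the 11891 tested genes with an NM transcript, 0.286% had such a junction, and among the 755 bound genes 1.06%. Transcripts with a retained intron were annotated for Swap70 (3), Syk (2), Btk, Blnk, Pik3ap1, Vav1 and Dok3 (1 each), which include both bound and depleted mRNAs. Since the table counts whole genes, reads of such transcripts cannot be separated from those of the coding mRNA. At least 1 ATG lay in the 5′ UTR of Syk, Btk, Blnk and Pik3ap1, and in that of 48.5% of all these genes.

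The 3′ UTR was 2997 nt in Syk, 2169 nt in Swap70, 1668 nt in Lyn, 1544 nt in Pik3ap1, 1532 nt in Vav1 and 919 nt in Grap. The remaining 4 were short, at 395 nt in Btk, 315 nt in Plcg2, 246 nt in Blnk and 187 nt in Dok3. The 3 depleted mRNAs thus had 3′ UTRs of at most 395 nt, as did Dok3, which had the shortest and a positive log2 fold change. The 4 bound mRNAs had ones of at least 919 nt. Lyn and Vav1, with lengths close to that of Pik3ap1, were not bound. The median was 1015 nt over all 11891 genes, 1695 nt over the bound and 960.5 nt over the other genes.
When all these genes were split into 4 bins of near equal size by 3′ UTR length, the median log2 fold change over IgG was -0.78 up to 420 nt, -0.01 from 421 to 1015 nt, 0.43 from 1016 to 2027 nt and 0.39 beyond. The share bound was 1.68%, 3.97%, 9.76% and 9.99%. Btk, Plcg2, Blnk and Dok3 fell into the shortest bin, Grap into the second, Lyn, Pik3ap1 and Vav1 into the third, and Syk and Swap70 into the longest. Spearman's correlation between 3′ UTR length and the log2 fold change over IgG was 0.356 across the 11891 genes and 0.612 across the 10. Both are descriptions across genes, which share the 9 libraries and are not independent replicates. Across the 10, Spearman's correlation was -0.689 for the number of exons and -0.442 for coding length, where it was 0.081 and 0.129 across all genes. For GC content it was positive too, at 0.313 across all genes and 0.236 across the 10 for the 3′ UTR, and at 0.164 and 0.455 for the coding sequence.

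**Figure D5:**
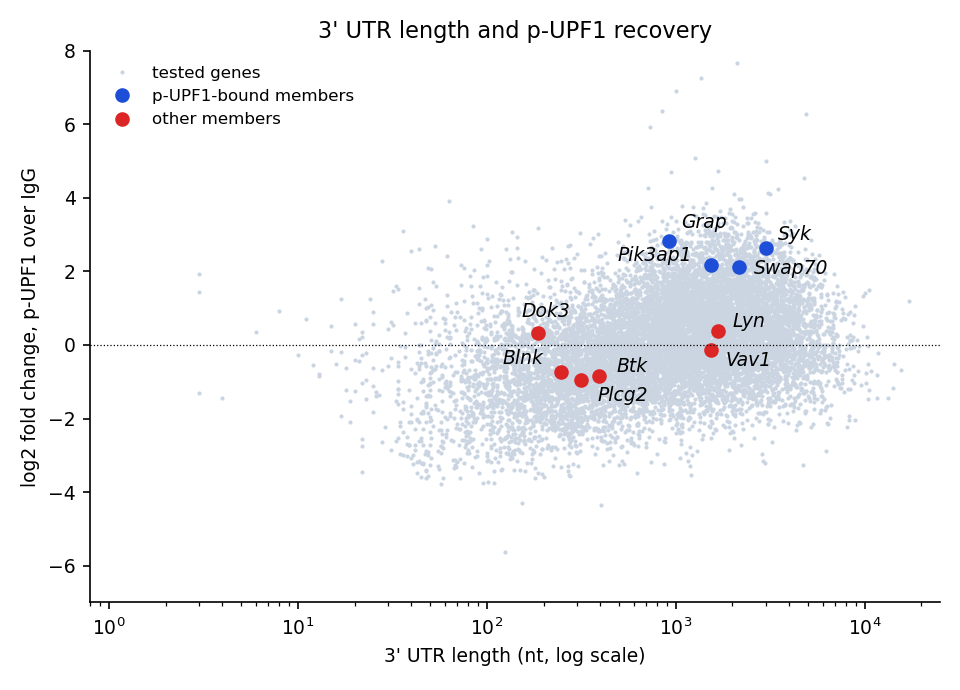
Length of the 3′ UTR (nt, log axis) and log2 fold change of p-UPF1 over IgG for tested genes with an NM transcript and a 3′ UTR (grey), with the 4 bound members in blue and the other 6 in red. Each point is 1 gene. Btk, Plcg2 and Blnk combine a short 3′ UTR with a negative value, Dok3 has the shortest 3′ UTR and a value of 0.32, and Lyn and Vav1 lie near 0 at a length close to that of Pik3ap1.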

How the data were processed

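The authors deposited raw read counts per gene for 9 libraries, keyed by NCBI Gene number. The labels name cutadapt, HISAT2, featureCounts and mm10, without versions in the sources used here. The kit was directional, but the study's RNA-seq methods describe unstranded alignment, and strand use in counting the RIP-seq reads is not stated, so overlapping genes on opposite strands may share reads. Reads carried no molecular identifiers, so precision covers counting and library spread only.

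Counts were filtered with filterByExpr (minimum count 10, minimum total 15), leaving 13129 genes with 99.9% of the counts, scaled by TMM and fitted with edgeR 4.0.16 (R 4.3.3) by a quasi-likelihood model of the 3 groups on all 9 libraries without covariates (residual degrees of freedom, 6). Tests were two-sided with Benjamini-Hochberg adjustment over all tested genes. A prior count of 0.125 was used for log2 fold changes, whose SE follow from the F statistic. The code was tested on simulated data. Of the 27179 identifiers, 25275 were named through RefSeq on GRCm38, 18 through GENCODE and 1886 by neither (0.373% of counts).

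Columns were assigned to groups by name. They carry letters A to C, while the labels number the replicates. The 10 genes, the list of 82, the paralogues, the markers and the tests were chosen with earlier results of these data known. Named genes were the 10, tested paralogues, the bound genes and 3 lowest of the 82, and the 3 nearest patterns to the highest and lowest of the 10 (mean of at least 10 CPM). Alternatives covered scaling, filter, tool (DESeq2 1.42.0, limma 3.58.1), fold test, prior count, threshold, samples in the fit and each library left out, and a block by column letter, added later. Some items within the lists are not reported here.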

Additional observations from a re-analysis of the deposited data

How the results depend on the processing

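Across 23 alternatives and the 10 mRNAs, p-UPF1 over IgG kept direction and call in 215 values, lost the call in 11 and reversed in 4. Over Input these were 214, 10 and 6, and for IgG over Input 161, 28 and 28, with 13 calls gained. Calls lost against p-UPF1 were those of Dok3 and Vav1.

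Scaling to mitochondrially encoded mRNA gave 10 bound, 10 higher and 0 lower over IgG and over Input. Under it, 12719 of all 13129 tested genes were bound, so nothing is read from the 10. Reversed log2 fold changes over IgG were 3.84 for Btk, 3.95 for Blnk, 3.74 for Plcg2 and 4.56 for Vav1, and over Input 4.08, 3.85, 4.01 and 4.92. IgG over Input then had 9 higher and 0 lower, with 0.22 for Lyn, 0.24 for Btk, 0.22 for Grap, 0.2 for Pik3ap1, 0.32 for Dok3 and 0.26 for Plcg2. By construction this shifts all genes together (medians 4.66, 5 and 0.24).

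IgG over Input was the least stable comparison. Higher calls numbered 3 with library size alone or an Input or IgG library as TMM reference, and 2 without the low-count filter or with only the groups compared. Lower calls numbered 1 under those 5 settings and with upper-quartile factors, and 2 with RLE factors or at an adjusted P under 0.01. Values near 0 changed sign. Btk became 0.01 with library size alone and 0 with an Input reference or only the groups compared. Plcg2 became 0.03 with library size alone, 0.02 with an Input reference, an IgG reference or only the groups compared, and 0 without the filter. Dok3 became 0.1 with library size alone, 0.05 with upper-quartile factors, 0.01 with RLE, 0.09 with an Input reference or only the groups compared, 0.08 with an IgG reference, 0.07 without the filter and 0.02 with DESeq2. In p-UPF1 over Input, Vav1 became 0 with an IgG reference and 0.01 without the filter. The cause was not tested.

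With each library left out, 3 to 4 mRNAs were bound, 5 to 6 higher and 3 to 4 lower over IgG and over Input, and 1 higher and 3 to 6 lower in IgG over Input. Log2 fold changes of IgG over Input then ranged from -0.22 to 0.13 for Dok3, from -0.04 to 0.13 for Syk and from -0.03 to 0.02 for Vav1.

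The labels do not tie the column letters to shared cultures or animals. Deviations from the group means correlated at 0.07 to 0.2 between libraries of the same letter (9 pairs, 6 over 0.1) and at -0.14 to 0.03 otherwise, and each library correlated best with its own letter, a hint from the data only. A replicate block by letter, added after seeing the data, left 4 bound, 6 higher and 4 lower over IgG and over Input, and 1 higher and 4 lower in IgG over Input, with the calls of all 10 mRNAs as before. For Dok3 it gave an adjusted P of 0.00386 over IgG and 0.00562 over Input (edgeR, Benjamini-Hochberg).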
